A study of Mus musculus with 14 samples.

Results

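The genes described here are 45 genes of homologous recombination and of the Fanconi anaemia pathway, taken by symbol from a fixed list. All 45 were found among the 45706 genes of the 2 deposited expression tables, and all 45 passed the filter on low counts in both tables. They were grouped by step into 5 genes of break sensing, 4 of end resection, 15 of strand invasion, 8 of junction resolution and 13 of crosslink repair.

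The study measured RNA in 14 libraries of 6 groups of mouse blood-forming cells, with and without the arginine methyltransferase gene Prmt5. The fetal liver cells were taken at E14.5, a mid-gestation embryonic stage, and sorted by Ter119, a surface antigen of maturing red cells. The KO fetuses were PRMT5fl/fl; Vav-cre, so that both Prmt5 copies are floxed and the Cre is driven by Vav, which is active in blood-forming cells. The WT fetuses were PRMT5fl/fl without Cre. The 4 fetal groups were Ter119pos KO, Ter119pos WT, Ter119neg KO and Ter119neg WT, with 2 libraries each, and the 8 libraries came from 5 mice. KO mice 1 and 2 and WT mouse 4 gave both fractions, whereas WT library A came from mouse 5 in Ter119pos and from mouse 3 in Ter119neg. The other 2 groups were sorted LK cells, a population that the labels do not spell out, with 3 libraries each. LK KO cells were Mx1-cre;PRMT5fl/fl, and LK WT cells had the floxed alleles (PRMT5fl/fl) without Cre. The Cre driven by Mx1 is switched on by poly(I:C), and the cells of both LK groups were taken 7 days after poly(I:C) injections. The labels do not say whether the LK libraries came from separate mice, so that the p-values for LK measure the spread between libraries, which may be technical. The WT groups carry the floxed alleles too, and no group has unmodified Prmt5 alleles or Cre alone.

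Homologous recombination repairs DNA double-strand breaks with a sister copy as the template. The break is sensed by kinases and by the Mre11-Rad50-Nbn complex, the ends are cut back to single strands, a protein filament forms on them and invades the copy, and the joined molecules are then separated. The Fanconi pathway recognises DNA strands that are chemically crosslinked, marks the Fancd2-Fanci pair with ubiquitin and hands the broken ends to recombination. Inherited loss of Fanconi genes leads to failure of the blood-forming marrow, so the pathway is well known in this tissue.

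Levels are given as TMM-normalised CPM, a count scaled by library size, and each fold change is KO over WT, or Ter119pos over Ter119neg, on the log2 scale with its standard error after the ± sign. A gene is called, and is said to have risen or fallen, where the Benjamini-Hochberg adjusted p over all tested genes was under 0.05 in edgeR's quasi-likelihood test. Prmt5 itself, the check of the labels, stood at 3.64 and 4.92 CPM in Ter119pos KO libraries, against 13.8 and 17.7 CPM in WT libraries. It stood at 4.51 and 4.26 CPM in Ter119neg KO libraries, against 52.3 and 51.8 CPM in WT libraries, and at 11.7, 12.3 and 10.5 CPM in LK KO libraries, against 110.2, 63.1 and 69.9 CPM in WT libraries. In each population all KO libraries thus lay below all WT libraries for Prmt5. Libraries held 19514550 to 30976961 expected counts. The sum of 9 red-cell marker genes was 180088 to 251504 CPM in the Ter119pos libraries and 606 to 1141 CPM in the Ter119neg libraries. Kit, a receptor of blood progenitors, was at 209 to 388 CPM in the LK libraries, and at 7.28 to 13.98 CPM in the Ter119pos and 96.4 to 110.1 CPM in the Ter119neg libraries. The LK libraries of letter B stood apart, with the ribosomal RNA gene Rn18s-rs5 taking 23.4% of counts in the KO library and 18.04% in the WT library. In the Ter119pos KO libraries the small RNA gene Rn7s1 was the top gene with 14.1% and 13.7% of counts.

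Summed over the 45 genes, the 2 Ter119pos KO libraries had 801 and 791 CPM and the 2 Ter119pos WT libraries 1714 and 1661 CPM. The Ter119neg KO libraries had 710 and 704 CPM, and the Ter119neg WT libraries 799.9 and 818 CPM. The LK KO libraries had 1297, 1444 and 1529.9 CPM, and the LK WT libraries 1447, 1847 and 1812 CPM. The genotypes thus did not overlap in either fetal fraction, and they overlapped in LK, where the highest KO library was above the lowest WT library. LK and fetal libraries were normalised separately, so levels are not set against each other across them.

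Per kilobase of longest annotated transcript, the order of the genes differed among the groups. In Ter119pos KO cells Swi5 was highest at 13.8 CPM per kb, followed by Blm at 12.4, Sfr1 at 11.9 and Dna2 at 11.8. In Ter119pos WT cells Brca1 was highest at 29.9 CPM per kb, followed by Blm at 26.96, Wrn at 21.1 and Dna2 at 16.3. In Ter119neg cells Dna2 led in both genotypes, with 19.1 CPM per kb in KO and 13.9 in WT. Rad51c was the lowest of the 45 in Ter119neg cells, with 0.141 CPM per kb in KO and 0.254 in WT, and also in LK cells, with 0.621 in KO and 1.36 in WT. The median over the 45 genes was 2.75 CPM per kb in Ter119pos KO and 6.05 in Ter119pos WT, and it was 2.59 in Ter119neg KO and 3.34 in Ter119neg WT. It was 5.02 CPM per kb in LK KO and 6.57 in LK WT.

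**Figure D1:**
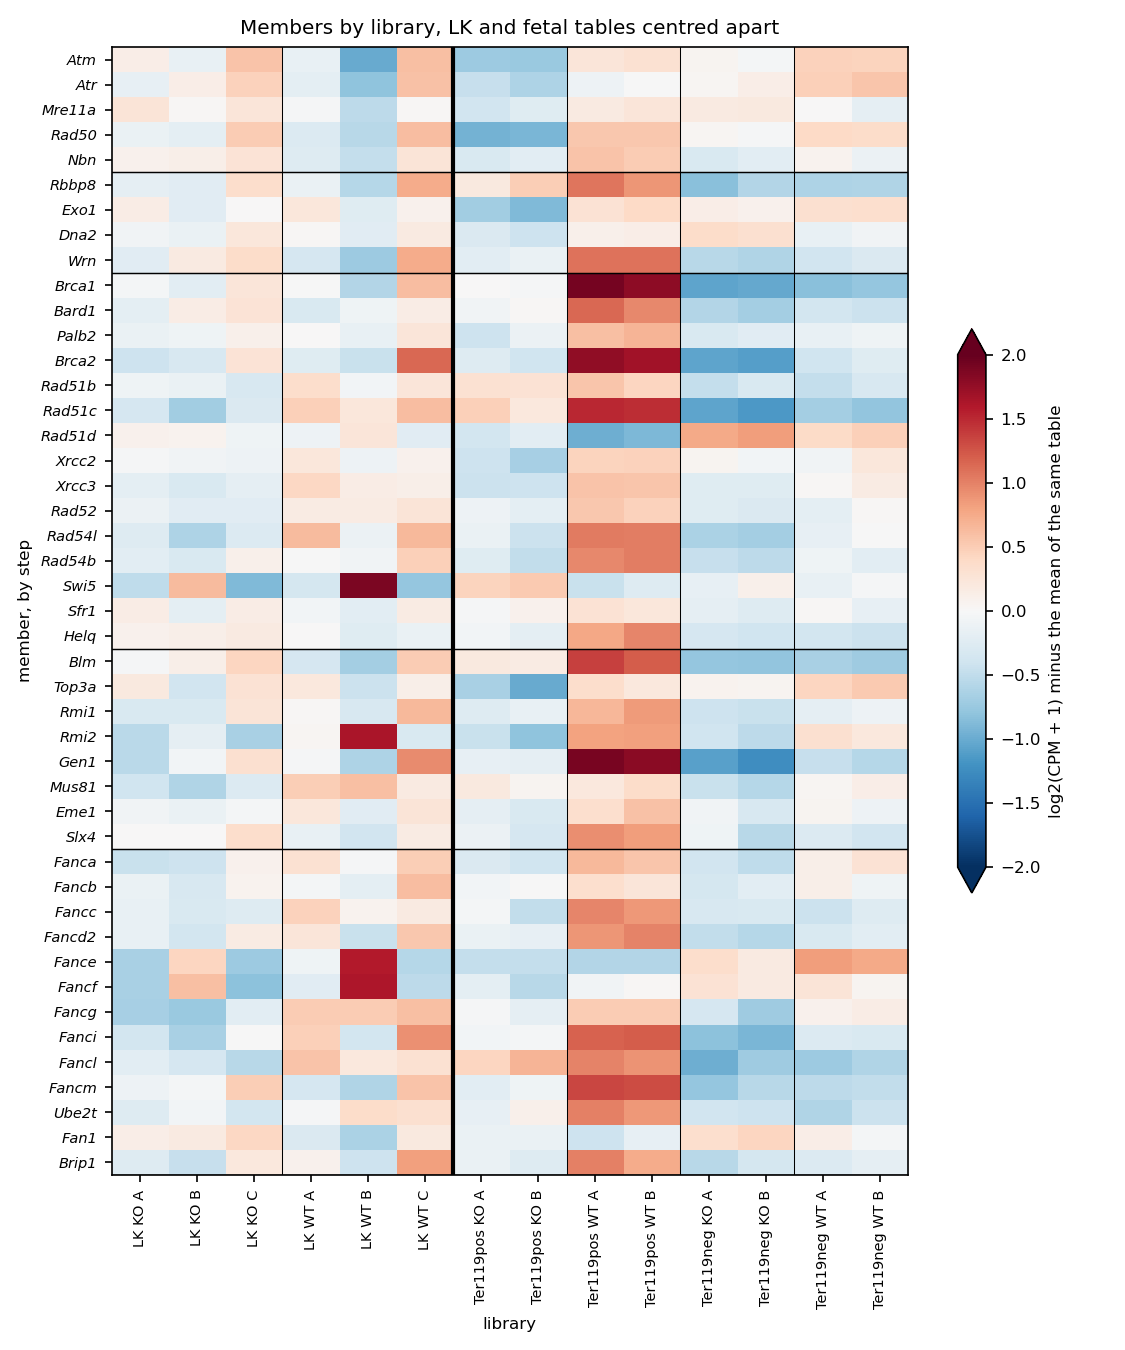
Colours give log2(CPM + 1) of each gene in each library minus the mean of that gene over the libraries of the same table, with rows ordered by step and KO libraries left of WT libraries. The Ter119pos WT libraries are the highest of the fetal libraries for Brca1, Brca2, Gen1, Blm and Fancm, and Swi5, Rmi2, Fance and Fancf stand out in LK WT library B.

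Ter119pos cells gave the most calls. Of the 45 genes, 36 fell in Ter119pos KO cells, 2 rose and 7 were not called. Among all 15566 genes tested in this comparison, 29.3% fell and 24.8% rose. The median log2 fold change of the 45 genes was -1.06, against -0.04 over all genes. In bulk RNA, fewer cells of a type and less RNA per cell cannot be told apart, and this holds for every comparison here. The 7 genes not called in Ter119pos cells had no overlap between KO and WT libraries either. With 2 libraries a group, such separation thus does not set called genes apart. In Ter119neg cells Brca1, Exo1 and Wrn were also separated without being called. The share of all genes separated in this way is not given here.

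All 5 sensing genes fell in Ter119pos KO cells. Rad50, the ATPase of the break-binding complex, stood at 12.3 and 12.6 CPM in KO libraries, against 36.1 and 36.01 CPM in WT libraries (-1.53 ± 0.11, edgeR adjusted p = 3.36e-07). Both KO libraries lay well below both WT libraries. Its partners Mre11a, the nuclease (-0.54 ± 0.11), and Nbn, the adaptor (-0.84 ± 0.13), fell by less. The kinase Atm, which responds to breaks, fell (-1.06 ± 0.11), as did Atr, which responds to single-stranded DNA (-0.50 ± 0.11). The call for Atr was lost when the trend of fold change on transcript length was removed (-0.22, adjusted p = 0.161).

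All 4 resection genes fell. Wrn, a RecQ helicase, stood at 53.3 and 56.1 CPM in KO libraries, against 132 and 132 CPM in WT libraries (-1.27 ± 0.10, edgeR adjusted p = 8.77e-07). The exonuclease Exo1, which cuts back long stretches of end, stood at 15.8 and 13.8 CPM in KO libraries, against 32.05 and 35.01 CPM in WT libraries (-1.17 ± 0.12, edgeR adjusted p = 3.49e-06). Both genes had no overlap between the genotypes. Rbbp8, which starts resection together with the break-binding complex, changed by -0.65 ± 0.14, and the nuclease-helicase Dna2 by -0.47 ± 0.10.

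Of the 15 strand invasion genes, 11 fell and 2 rose. Brca2, a mediator of strand invasion that lies on chromosome 5 (GRCm38, 150522630 to 150570329), stood at 38.3 and 34.7 CPM in KO libraries, against 161 and 149.9 CPM in WT libraries (-2.09 ± 0.11, edgeR adjusted p = 8.29e-08). Brca1, which works with Bard1 as a ubiquitin ligase and lies on chromosome 11 (101488764 to 101551955), stood at 54.04 and 52.5 CPM in KO libraries, against 205 and 188 CPM in WT libraries (-1.88 ± 0.11, edgeR adjusted p = 1.18e-07). Bard1 itself stood at 32.1 and 34.4 CPM in KO libraries, against 76.3 and 66.8 CPM in WT libraries (-1.11 ± 0.11, edgeR adjusted p = 3.38e-06). For each of these genes both KO libraries were below both WT libraries. Palb2, the bridge between Brca1 and Brca2, fell by 0.98 ± 0.14. Rad54l, a motor protein that acts on the DNA template, stood at 27.05 and 21.9 CPM in KO libraries, against 62.2 and 61.8 CPM in WT libraries (-1.34 ± 0.12, edgeR adjusted p = 1.71e-06). Its relative Rad54b changed by -1.50 ± 0.16, but 35.8% of the exon bases of Rad54b are shared with Fsbp on the same strand, so their reads may be split between them.

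The paralog genes Rad51b, Rad51c, Rad51d, Xrcc2 and Xrcc3, whose products help to build and stabilise the filament, did not move alike. Rad51c (-1.36 ± 0.22), Xrcc2 (-1.08 ± 0.16) and Xrcc3 (-1.11 ± 0.16) fell, Rad51b had 5.32 and 5.26 CPM in KO libraries, against 6.55 and 5.94 CPM in WT libraries and was not called (-0.24 ± 0.19), and Rad51d rose. Rad51d, on chromosome 11 (82876434 to 82890614), stood at 5.39 and 6.13 CPM in KO libraries, against 3.19 and 3.41 CPM in WT libraries (0.80 ± 0.18, edgeR adjusted p = 0.00196). The other gene that rose was Swi5, which forms an accessory complex with Sfr1, at 60.6 and 64.01 CPM in KO libraries, against 32.3 and 36.8 CPM in WT libraries (0.85 ± 0.12, edgeR adjusted p = 7.89e-05). Both were higher in each KO library than in each WT library, whereas Sfr1 was not called (-0.25 ± 0.12). The annealing factor Rad52 (-0.75 ± 0.17) and the helicase Helq (-1.06 ± 0.13) fell.

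Of the 8 resolution genes, 7 fell. Gen1, a nuclease that cuts Holliday junctions, lies on chromosome 12 (11238920 to 11265801) and stood at 11.3 and 11.3 CPM in KO libraries, against 50.7 and 47.7 CPM in WT libraries. Its log2 fold change of -2.12 ± 0.12, edgeR adjusted p = 1.2e-07, was the lowest of the 45 genes. Blm, the helicase that dissolves joined molecules together with Top3a, Rmi1 and Rmi2, stood at 59.4 and 58.6 CPM in KO libraries, against 136 and 121 CPM in WT libraries (-1.12 ± 0.10, edgeR adjusted p = 2.25e-06). Top3a, the topoisomerase of that complex (-1.23 ± 0.17), Rmi1 (-1.04 ± 0.14) and Rmi2 (-1.75 ± 0.22) fell with it. Slx4, a scaffold for nucleases (-1.15 ± 0.16), and Eme1 (-0.75 ± 0.15) fell as well. Mus81, the nuclease partner of Eme1, was not called: it had 8.61 and 7.68 CPM in KO libraries, against 8.72 and 9.77 CPM in WT libraries (-0.18 ± 0.16), with KO libraries just below WT libraries.

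Of the 13 crosslink repair genes, 9 fell and none rose. Fancm, the DNA motor that recognises stalled forks, stood at 20.8 and 22.9 CPM in KO libraries, against 63.01 and 61.4 CPM in WT libraries (-1.51 ± 0.11, edgeR adjusted p = 5.05e-07). Both parts of the ubiquitin-marked clamp fell. Fanci stood at 18.5 and 18.7 CPM in KO libraries, against 44.9 and 45.4 CPM in WT libraries (-1.28 ± 0.11, edgeR adjusted p = 9.68e-07), and Fancd2 stood at 28.4 and 27.5 CPM in KO libraries, against 58.4 and 62.7 CPM in WT libraries (-1.11 ± 0.10, edgeR adjusted p = 2.18e-06). Ube2t, which supplies the ubiquitin (-1.05 ± 0.15), and the ligase Fancl (-0.40 ± 0.15) fell, and so did the helicase Brip1 (-1.13 ± 0.14). Of the core complex, Fanca (-0.98 ± 0.12), Fancc (-1.24 ± 0.16) and Fancg (-0.66 ± 0.18) fell. Fancb (-0.38 ± 0.18), Fance (0.15 ± 0.19) and Fancf (-0.47 ± 0.25) were not called, and neither was the nuclease Fan1 (0.20 ± 0.22). Of the exon bases, 16.4% in Fancc, 16.0% in Fanci, 15.0% in Fancf, 13.7% in Fancl and 10.5% in Fanca overlap a gene on the opposite strand, and the strand setting of the counting is not given in the sources used here.

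**Figure D2:**
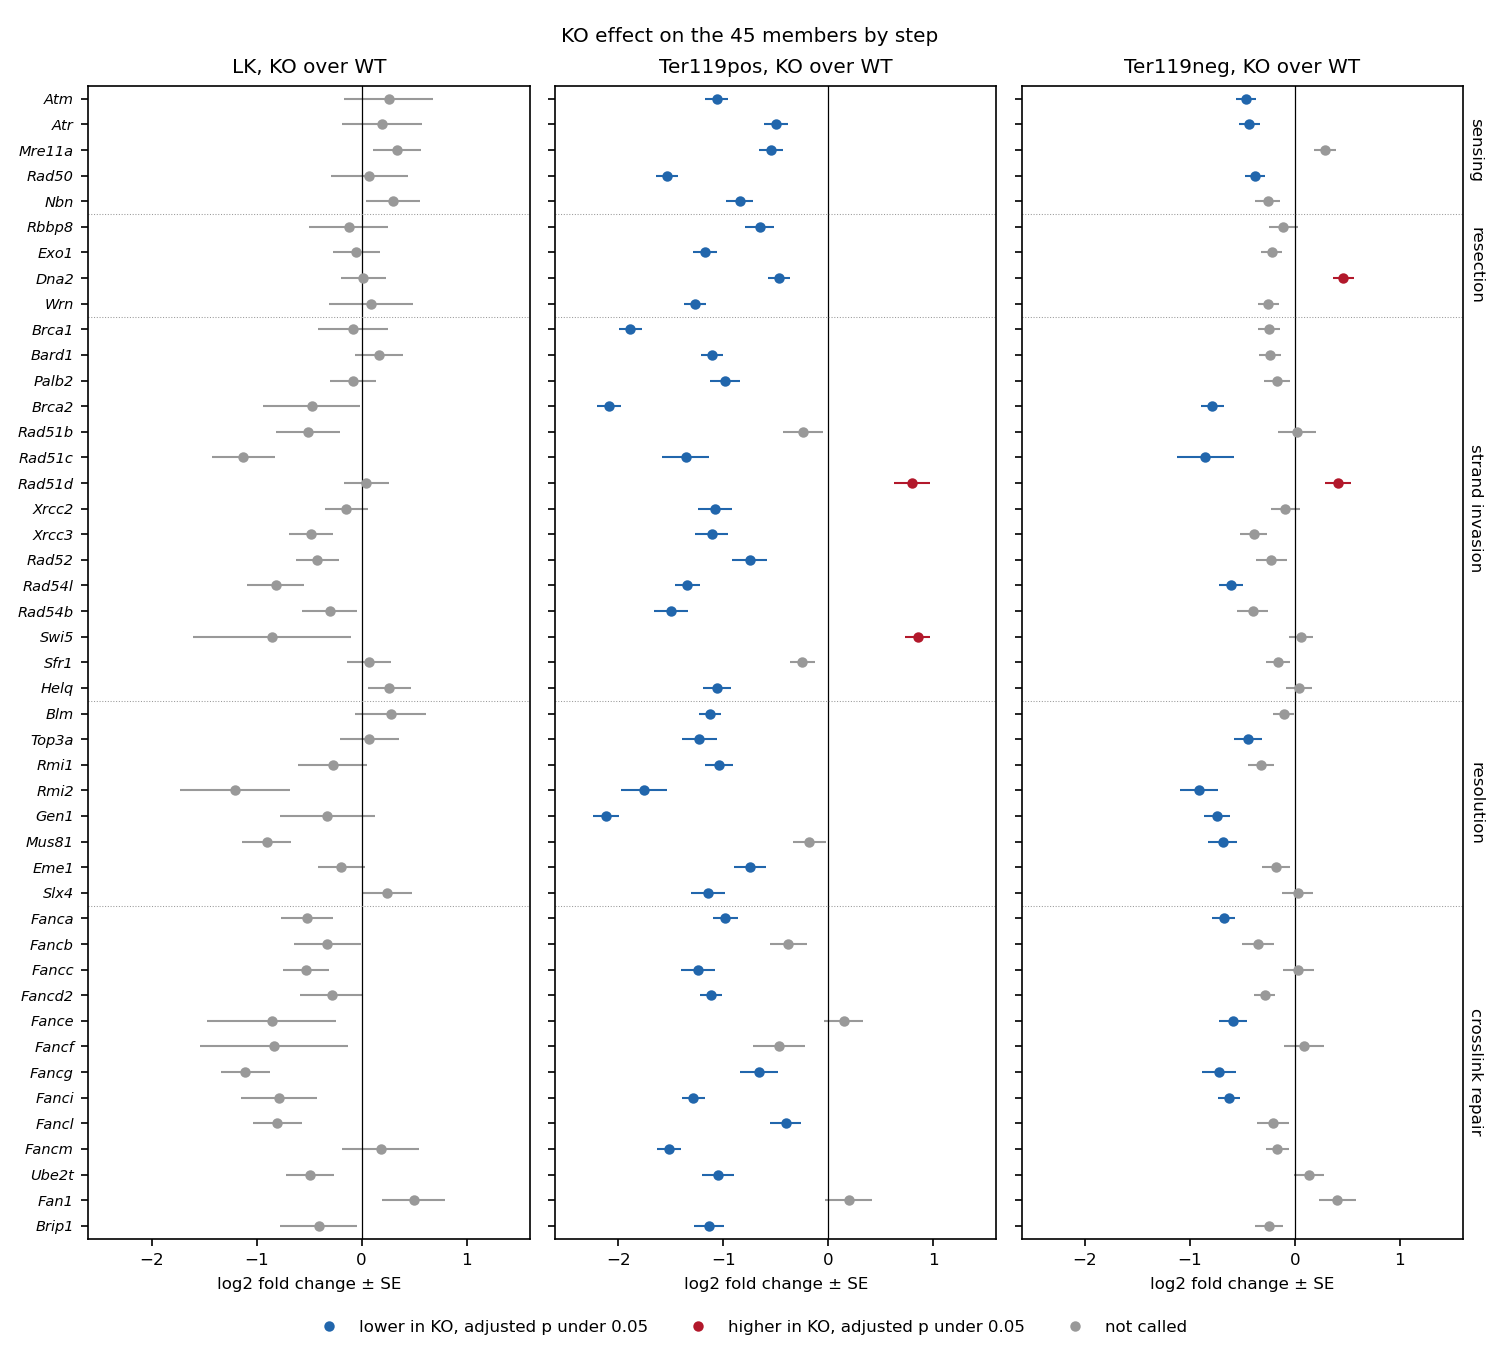
Points give the log2 fold change of KO over WT with its standard error for each gene, in LK, Ter119pos and Ter119neg cells, with genes ordered by step. In Ter119pos cells 36 genes are lower and 2 higher, in Ter119neg cells 14 are lower and 2 higher, and in LK cells none is called.

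Other lists moved in the same Ter119pos comparison. Of 15 genes of mitosis, 15 fell, and their summed level was 2550 to 2585 CPM in KO libraries and 13121 to 14977 CPM in WT libraries. The larger part of the WT sum was Mki67 alone, at 1237 to 1249 CPM in KO libraries and 9144 to 10631 CPM in WT libraries. Of 20 genes of S phase, 15 fell and 1 rose, with 2871 to 2879 CPM in KO libraries and 4139 to 4141 CPM in WT libraries. Of 15 p53 target genes, 13 rose, with 1607 to 1889 CPM in KO libraries and 406 to 438 CPM in WT libraries. Of 9 measured red-cell markers, 4 fell and 1 rose, and of 10 granulocyte markers 6 fell, with a sum of 29.5 to 81.9 CPM in KO libraries and 95.7 to 187 CPM in WT libraries. Of 10 macrophage markers 3 fell and 1 rose, Hmox1, a haem-degrading enzyme, which was at 178 to 326 CPM in KO libraries and 14.01 to 15.7 CPM in WT libraries. The 10 together summed to 214 to 373 CPM in KO libraries and 51.3 to 83.3 CPM in WT libraries. Without Hmox1, left out after its values were seen, the sum was 36.5 to 46.8 CPM in KO libraries and 37.3 to 67.6 CPM in WT libraries, so that the genotypes overlapped. Of 8 hepatoblast markers 3 rose, with a sum of 55.8 to 80.4 CPM in KO libraries and 29.99 to 40.9 CPM in WT libraries, and of 8 megakaryocyte markers 5 rose and 2 fell. The 10 markers of blood progenitors summed to 30.5 to 38.0 CPM in KO libraries and 25.1 to 28.7 CPM in WT libraries. The TMM factors were 0.482 and 0.408 in KO libraries and 0.792 and 0.855 in WT libraries. The part of these in the fall of the 45 genes was not tested.

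Over all protein-coding genes, the log2 fold change in Ter119pos cells ran with transcript length, with a median of 1.18 below 1 kb and -0.52 above 8 kb. Across the 45 genes it also ran with length (Pearson r = -0.45, Spearman rho = -0.51), as a description across genes that share the same 4 libraries. The removal of this trend was partial, and over all protein-coding genes the medians were then 0.59 below 1 kb and -0.19 above 8 kb. With the trend of all genes removed to that extent, the correlation across the 45 was weaker (r = -0.24, rho = -0.26). In that fit 37 of the 45 genes fell and 2 rose, with a median of -0.89 against -0.05 over all genes. Among the 23 members with transcripts under 4000 bases 17 fell and 1 rose in that fit, with a median of -0.82. Among the 22 longer ones 20 fell and 1 rose, with a median of -0.90. As tested, before the removal, 15 of the shorter ones fell and 1 rose, with a median of -0.75. Of the longer ones 21 then fell and 1 rose, with a median of -1.13.

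**Figure D3:**
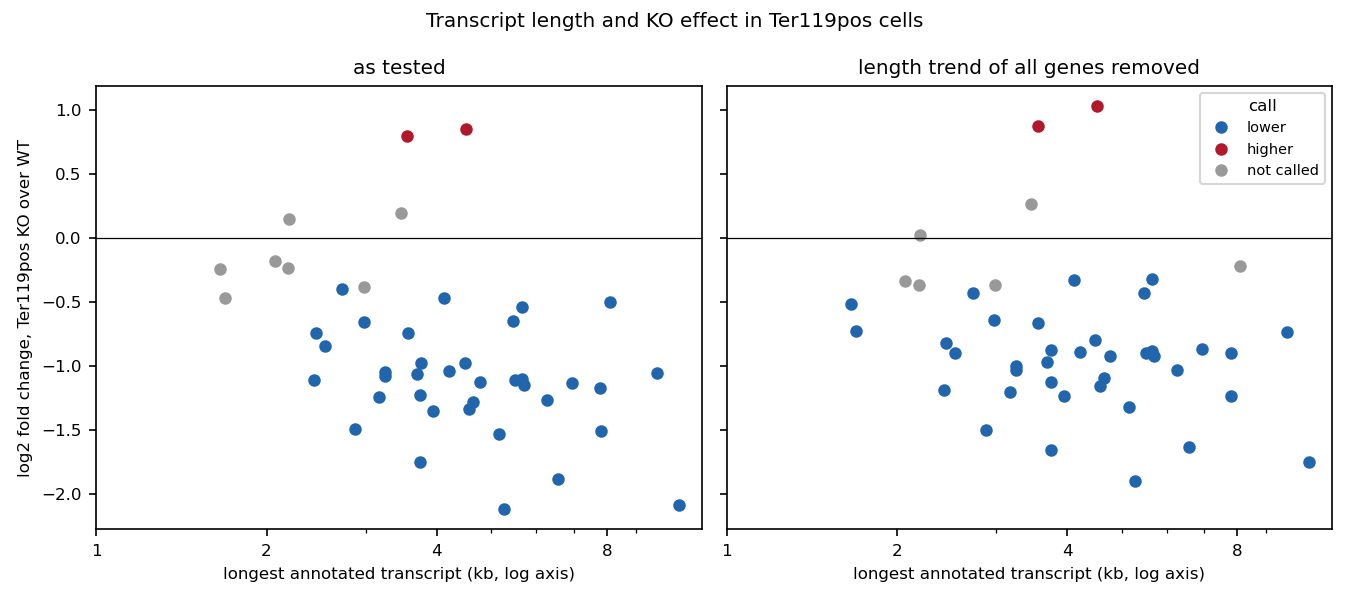
The log2 fold change of each gene in Ter119pos KO over WT is plotted against its longest annotated transcript on a log axis, as tested and with the length trend of all genes removed. The removal left part of the trend. With the trend removed 37 genes are called lower, and Rad51d and Swi5 lie above 0 in both plots.

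Ter119neg cells gave fewer calls. Of the 45 genes, 14 fell in Ter119neg KO cells and 2 rose, against 9.55% falling and 9.57% rising among all tested genes. The median log2 fold change of the 45 was -0.25, against 0.01 over all genes. Without KO library B, 7 fell, and without any 1 of the other 3 libraries, 10 fell. The 2 genes that rose were not called when any 1 of the 4 libraries was left out.

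Of the sensing genes, Atm, Atr and Rad50 fell. Atm stood at 26.2 and 24.6 CPM in KO libraries, against 35.1 and 35.00 CPM in WT libraries (-0.46 ± 0.10, edgeR adjusted p = 0.00552), and Atr at 28.2 and 30.3 CPM in KO libraries, against 38.3 and 40.6 CPM in WT libraries (-0.43 ± 0.10, edgeR adjusted p = 0.0112). Every KO library was below every WT library for both kinases. Rad50 changed by -0.38 ± 0.09. Its partners Mre11a (0.28 ± 0.11) and Nbn (-0.26 ± 0.12) were not called.

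Among the resection genes Dna2 went the other way from the Ter119pos cells. It stood at 80.3 and 77.5 CPM in KO libraries, against 56.1 and 58.7 CPM in WT libraries in Ter119neg cells (0.46 ± 0.10, edgeR adjusted p = 0.00734), and at 50.5 and 46.5 CPM in KO libraries, against 66.5 and 67.7 CPM in WT libraries in Ter119pos cells (-0.47 ± 0.10, edgeR adjusted p = 0.00215). The Ter119neg KO libraries were thus above the WT libraries, and the Ter119pos KO libraries below theirs. Its rise in Ter119neg cells had adjusted p-values of 0.0699 to 0.114 when 1 library was left out. Rbbp8, Exo1 and Wrn were not called, at -0.25 to -0.11.

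Of the strand invasion genes, Brca2, Rad51c and Rad54l fell and Rad51d rose. Brca2 stood at 21.8 and 20.99 CPM in KO libraries, against 34.8 and 38.9 CPM in WT libraries (-0.78 ± 0.11, edgeR adjusted p = 0.000475). Rad54l stood at 18.8 and 18.1 CPM in KO libraries, against 26.6 and 29.6 CPM in WT libraries (-0.61 ± 0.11, edgeR adjusted p = 0.00332), with 15.4% of its exon bases overlapping Lrrc41 on the opposite strand. Neither gene had overlapping groups. Rad51c was low in this fraction, with 0.605 and 0.505 CPM in KO libraries, against 1.07 and 0.930 CPM in WT libraries (-0.85 ± 0.27, edgeR adjusted p = 0.0471), where 3 counts correspond to 0.0584 to 0.0825 CPM in these libraries. Rad51d rose in this fraction too (0.41 ± 0.13). Brca1 had 25.3 and 25.8 CPM in KO libraries, against 29.6 and 31.1 CPM in WT libraries and was not called (-0.25 ± 0.11, edgeR adjusted p = 0.129), and Bard1 (-0.24 ± 0.10) and Palb2 (-0.17 ± 0.13) were not called either.

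Of the resolution genes, Gen1, Rmi2, Mus81 and Top3a fell. Gen1 stood at 5.55 and 4.89 CPM in KO libraries, against 9.09 and 8.33 CPM in WT libraries (-0.74 ± 0.12, edgeR adjusted p = 0.00136). Rmi2, a small subunit of the Blm complex, stood at 2.86 and 2.53 CPM in KO libraries, against 5.31 and 4.84 CPM in WT libraries (-0.92 ± 0.18, edgeR adjusted p = 0.00412). Mus81 stood at 5.11 and 4.65 CPM in KO libraries, against 7.61 and 8.13 CPM in WT libraries (-0.69 ± 0.14, edgeR adjusted p = 0.00531). In these 3 genes the KO libraries all lay below the WT libraries. Blm itself was at 30.02 and 29.6 CPM in KO libraries, against 32.7 and 31.5 CPM in WT libraries and was not called (-0.11 ± 0.10).

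Of the crosslink repair genes, Fanca, Fance, Fancg and Fanci fell. Fanca stood at 18.2 and 16.5 CPM in KO libraries, against 26.01 and 29.5 CPM in WT libraries (-0.68 ± 0.11, edgeR adjusted p = 0.00127). Fancg, which binds Fanca in the core complex, stood at 5.72 and 4.18 CPM in KO libraries, against 7.96 and 8.33 CPM in WT libraries (-0.72 ± 0.16, edgeR adjusted p = 0.00839). Fance, which links the core complex to Fancd2, stood at 7.92 and 6.97 CPM in KO libraries, against 11.5 and 10.8 CPM in WT libraries (-0.59 ± 0.13, edgeR adjusted p = 0.00946). For each of these core complex genes the KO libraries lay below the WT libraries. Fanci stood at 10.4 and 9.75 CPM in KO libraries, against 15.7 and 15.3 CPM in WT libraries (-0.62 ± 0.10, edgeR adjusted p = 0.0014), while its partner Fancd2 was not called (-0.29 ± 0.10, adjusted p = 0.0637). The other 8 crosslink repair genes, among them Fancm (-0.17 ± 0.11) and Fan1 (0.41 ± 0.17), were not called. Beside these counts, 10 of 10 macrophage markers fell in Ter119neg KO cells, with a summed level of 36.1 to 38.0 CPM in KO libraries and 139 to 149 CPM in WT libraries. Other marker sums moved too without overlap of the genotypes. The 10 granulocyte markers, of which 2 fell, summed to 986 to 1390 CPM in KO libraries and 1768 to 1854 CPM in WT libraries. The 8 hepatoblast markers, of which 2 fell, summed to 123 to 249 CPM in KO libraries and 256 to 433 CPM in WT libraries. The lymphoid markers, of which 3 of 7 tested fell, summed to 7.33 to 9.36 CPM in KO libraries and 16.97 to 18.9 CPM in WT libraries. The 9 measured red-cell markers, of which 4 rose and 1 fell, summed to 755 to 1141 CPM in KO libraries and 606 to 645 CPM in WT libraries. The 10 markers of blood progenitors summed to 291 to 322 CPM in KO libraries and 334 to 357 CPM in WT libraries. Of the S phase genes 8 of 20 fell, of the mitosis genes 7 of 15 fell, and of the p53 targets 15 of 15 rose, and the part of any of these was not tested.

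**Figure D4:**
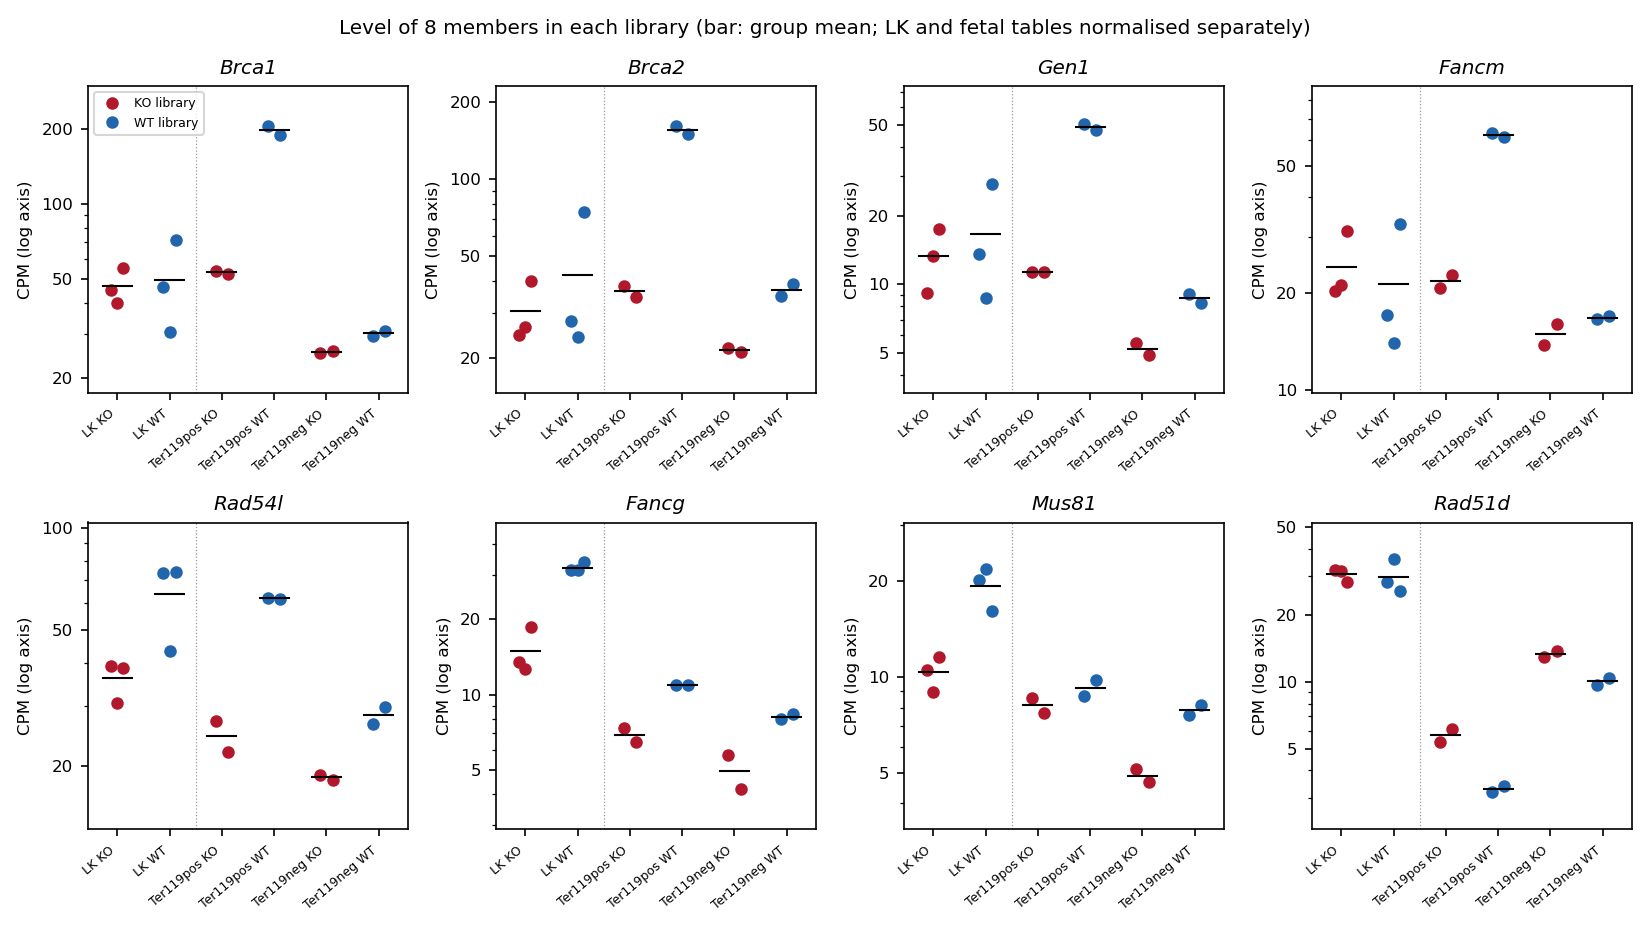
Points are CPM in each library on a log axis for 8 genes, with a bar at the group mean and KO left of WT in each population. Among the fetal libraries, Brca1, Brca2, Gen1 and Fancm are highest in the 2 Ter119pos WT libraries, and Rad51d is higher in KO than in WT in both fetal fractions.

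Of the 14 genes that fell in Ter119neg KO cells, 12 (85.7%) also fell in Ter119pos KO cells, and these 12 were 33.3% of the 36 that fell there. They were Atm, Atr, Rad50, Brca2, Rad51c, Rad54l, Top3a, Rmi2, Gen1, Fanca, Fancg and Fanci. The 2 fractions of each KO fetus come from the same mouse, so these lists are not independent. Among all listed repair genes, 80.0% fell in Ter119pos KO cells and 31.1% fell in Ter119neg KO cells. The shares of 85.7% and 33.3% lay near these, so the overlap alone does not show that the fractions changed alike. The same overlap over all tested genes is not given here. Mus81 and Fance fell in Ter119neg KO cells and were not called in Ter119pos KO cells.

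The difference between the fractions in the KO effect was tested as an interaction. It was negative for 30 of the 45 genes, that is, the change in Ter119pos cells lay further down than in Ter119neg cells, and positive for 2, Swi5 and Fance. Among all tested genes, 22.4% had a negative interaction and 19.3% a positive one. Brca1 had the smallest p, with -1.88 ± 0.11 in Ter119pos and -0.25 ± 0.11 in Ter119neg cells (interaction -1.64 ± 0.15, edgeR adjusted p = 1.72e-05). Fancm (-1.35 ± 0.16), Brca2 (-1.31 ± 0.16), Rad50 (-1.16 ± 0.14) and Gen1 (-1.38 ± 0.17) followed. Wrn (-1.02 ± 0.14), Blm (-1.02 ± 0.15), Dna2 (-0.93 ± 0.14), Exo1 (-0.95 ± 0.15) and Fancd2 (-0.83 ± 0.14) were called as well.

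Helq and Fancc fell in Ter119pos KO cells and were not called in Ter119neg cells. Helq stood at 11.6 and 10.4 CPM in KO libraries, against 21.4 and 24.8 CPM in WT libraries in Ter119pos cells and at 9.38 and 8.96 CPM in KO libraries, against 9.16 and 8.71 CPM in WT libraries in Ter119neg cells (interaction -1.10 ± 0.18, edgeR adjusted p = 0.000511). Fancc stood at 11.7 and 8.28 CPM in KO libraries, against 24.7 and 22.9 CPM in WT libraries in Ter119pos cells and at 9.49 and 9.55 CPM in KO libraries, against 8.70 and 9.92 CPM in WT libraries in Ter119neg cells (interaction -1.28 ± 0.22, edgeR adjusted p = 0.000595). Fance was the opposite case, with 4.06 and 4.05 CPM in KO libraries, against 3.67 and 3.65 CPM in WT libraries in Ter119pos cells (interaction 0.73 ± 0.23, edgeR adjusted p = 0.0218). By step, the interaction was negative for 4 of 5 sensing genes, 4 of 4 resection genes, 9 of 15 strand invasion genes, 7 of 8 resolution genes and 6 of 13 crosslink repair genes. The interaction also ran with transcript length, with medians over protein-coding genes of 1.23 below 1 kb and -0.47 above 8 kb. It was negative for 11 of the 23 members under 4000 bases and for 19 of the 22 longer ones. With the length trend partly removed these counts were 10 and 17. The part of length in the counts by step was not tested. The 13 genes without a called interaction were Atr, Rad51b, Rad51c, Rad51d, Rad52, Sfr1, Mus81, Fanca, Fancb, Fancf, Fancg, Fancl and Fan1. Without Ter119neg WT library A, 19 interactions were negative in place of 30.

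In LK cells none of the 45 genes was called in the fit without a block, where 0.661% of 13771 tested genes fell and 1.15% rose. With edgeR 6 of the 45 had an unadjusted p under 0.05, all lower in KO, and DESeq2 called 3 lower. The median log2 fold change was -0.27, against -0.09 over all genes. LK libraries of the same letter deviated together, and with the letter as a block 8 of the 45 fell and none rose, where 12.8% of all tested genes fell and 9.9% rose. The 8 were Rad51c, Rad54l, Mus81, Fanca, Fancc, Fancg, Fanci and Fancl, of which 5 are crosslink repair genes. In the fit without a block the LK fold change ran with transcript length, opposite to Ter119pos cells. Its medians over protein-coding genes were -0.66 below 1 kb and 0.27 above 8 kb. Across the 45 genes Pearson r was 0.35 and Spearman rho 0.39, and 0.07 and 0.12 with the length trend removed. The part of length in the LK values by step was not tested. Of these 8, Fanca, Fancg, Fanci, Rad51c and Rad54l also fell in both fetal fractions. Of all 45 genes, 80.0% fell in Ter119pos KO cells and 31.1% in Ter119neg KO cells. The same overlap over all tested genes is not given here, so it does not show that the populations changed alike.

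Fancg had the smallest p in LK cells. It stood at 13.4, 12.6 and 18.7 CPM in KO libraries, against 31.5, 31.4 and 33.8 CPM in WT libraries (-1.11 ± 0.23, edgeR adjusted p = 0.0664), and with the letter block it fell (-1.12 ± 0.16, adjusted p = 0.00537). Mus81 stood at 10.5, 8.97 and 11.5 CPM in KO libraries, against 20.2, 21.8 and 16.1 CPM in WT libraries (-0.90 ± 0.23, edgeR adjusted p = 0.108), and with the block it fell (-0.89 ± 0.19, adjusted p = 0.0199). Neither gene had overlapping genotypes. Rad51c stood at 2.68, 1.87 and 2.79 CPM in KO libraries, against 5.46, 4.46 and 6.15 CPM in WT libraries (-1.12 ± 0.30, edgeR adjusted p = 0.117), and with the block it fell (-1.13 ± 0.21, adjusted p = 0.0131). Fancl, the ligase, stood at 8.83, 8.03 and 6.77 CPM in KO libraries, against 15.9, 12.1 and 13.05 CPM in WT libraries (-0.80 ± 0.23, edgeR adjusted p = 0.144), and with the block it fell (-0.81 ± 0.17, adjusted p = 0.0175). In these genes too each KO library was below each WT library.

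The members of larger fold in LK cells were not all stable among libraries. Rmi2 had 14.6, 19.1 and 13.6 CPM in KO libraries, against 22.3, 69.5 and 17.5 CPM in WT libraries (-1.21 ± 0.52). Swi5 had 129.9, 288 and 100.3 CPM in KO libraries, against 145, 685 and 108 CPM in WT libraries (-0.86 ± 0.75). In both genes the letter B library was the highest of its genotype. Fance was high in the same libraries, at 39.2 CPM in the KO and 88.3 CPM in the WT library, as was Fancf, at 14.8 CPM in the KO and 31.2 CPM in the WT library. Brca1 had 45.3, 39.95 and 55.4 CPM in KO libraries, against 46.5, 30.6 and 71.7 CPM in WT libraries (-0.08 ± 0.33). Brca2 had 24.6, 26.4 and 40.1 CPM in KO libraries, against 27.8, 24.1 and 74.5 CPM in WT libraries (-0.47 ± 0.46), and the genotypes overlapped in both. The 5 sensing genes lay between 0.07 and 0.34. The 10 granulocyte markers summed to 9328 to 17330 CPM in KO libraries and 23164 to 49818 CPM in WT libraries, and 9 of 10 fell with the block. The 8 megakaryocyte markers summed to 95.3 to 149.5 CPM in KO libraries and 59.7 to 86.7 CPM in WT libraries. Of 15 p53 targets 11 rose in the fit without a block, and the part of these in the LK values was not tested.

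Within WT fetal livers, most of the 45 genes were higher in the Ter119pos fraction. In WT cells 32 were higher in Ter119pos than in Ter119neg and 3 were lower, against 35.9% higher and 40.4% lower among all tested genes. The median was 0.67, against -0.19 over all genes. These values use the same Ter119pos WT libraries as the KO comparison above, so the 2 sets of values are not independent. In KO cells 18 were higher and 12 lower, against 30.3% higher and 32.3% lower among all tested genes, with a median of 0.25 against -0.12.

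Brca1 was at 205 and 188 CPM in Ter119pos WT libraries, against 29.6 and 31.1 CPM in Ter119neg WT libraries (2.70 ± 0.11, edgeR adjusted p = 4.9e-10). In KO libraries it was at 54.04 and 52.5 CPM in Ter119pos, against 25.3 and 25.8 CPM in Ter119neg (1.06 ± 0.11, edgeR adjusted p = 3.24e-06). The fractions did not overlap in either genotype. Gen1 was at 50.7 and 47.7 CPM in Ter119pos WT libraries, against 9.09 and 8.33 CPM in Ter119neg (2.496 ± 0.12, edgeR adjusted p = 1.39e-09), and the KO difference was 1.12 ± 0.13. Blm was at 136 and 121 CPM in Ter119pos WT libraries, against 32.7 and 31.5 CPM in Ter119neg (2.002 ± 0.11, edgeR adjusted p = 4.17e-09), and the KO difference was 0.99 ± 0.11.

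Brca2 (2.08 ± 0.11), Fancm (1.89 ± 0.11), Fanci (1.54 ± 0.10), Bard1 (1.48 ± 0.11) and Wrn (1.44 ± 0.10) were also higher in Ter119pos WT than in Ter119neg WT cells. In KO cells the same genes stood at 0.77 ± 0.11, 0.54 ± 0.12, 0.88 ± 0.11, 0.62 ± 0.11 and 0.42 ± 0.10, each of them called. Fancl was at 14.3 and 17.2 CPM in Ter119pos KO libraries, against 4.77 and 5.92 CPM in Ter119neg KO libraries (1.55 ± 0.16, edgeR adjusted p = 2.58e-06). Rad51c was at 3.64 and 2.85 CPM in Ter119pos KO libraries, against 0.605 and 0.505 CPM in Ter119neg KO libraries (2.55 ± 0.27, edgeR adjusted p = 4.78e-06). Both were above the Ter119neg level in every Ter119pos library, and their interactions were not called.

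Other genes were lower in the Ter119pos fraction of KO livers. Rad50 was at 12.3 and 12.6 CPM in Ter119pos KO libraries, against 25.4 and 24.3 CPM in Ter119neg KO libraries (-0.998 ± 0.11, edgeR adjusted p = 4.82e-06), and it was not called in WT cells (0.16 ± 0.10). Exo1 was at 15.8 and 13.8 CPM in Ter119pos KO libraries, against 28.9 and 27.98 CPM in Ter119neg KO libraries (-0.94 ± 0.11, edgeR adjusted p = 1.38e-05), with 0.02 ± 0.10 in WT cells. Rad51d was at 5.39 and 6.13 CPM in Ter119pos KO libraries, against 13.00 and 13.8 CPM in Ter119neg KO libraries (-1.22 ± 0.15, edgeR adjusted p = 1.25e-05). It was lower in Ter119pos WT cells too (-1.61 ± 0.15), as were Fance (-1.61 ± 0.15) and Atr (-0.59 ± 0.11).

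Of the 32 genes that were higher in Ter119pos WT cells, 16 were also called higher in Ter119pos KO cells, 14 were not called there, and Mre11a and Xrcc2 were called lower. The 14 were Nbn, Palb2, Xrcc3, Rad52, Rad54b, Sfr1, Helq, Rmi1, Rmi2, Eme1, Slx4, Fanca, Fancc and Brip1. KO mice 1 and 2 and WT mouse 4 gave both fractions. With the mouse as a block, a mouse that gave only 1 fraction adds nothing to the difference between fractions. The WT difference in that fit thus rests on mouse 4 alone, so its WT and interaction calls are not given. Its WT log2 differences for Xrcc2 (0.26) and Fancg (0.39) were still above 0. In KO cells 2 calls changed with the mouse block. Sfr1 (0.26, edgeR adjusted p = 0.0238) and Brip1 (0.29, edgeR adjusted p = 0.0295) were then called higher in Ter119pos KO cells. Of the 15 mitosis genes 15 were higher in Ter119pos than in Ter119neg WT cells, and of the 20 S phase genes 18 were higher and 1 lower. The part of these in the values of the 45 genes was not tested.

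**Figure D5:**
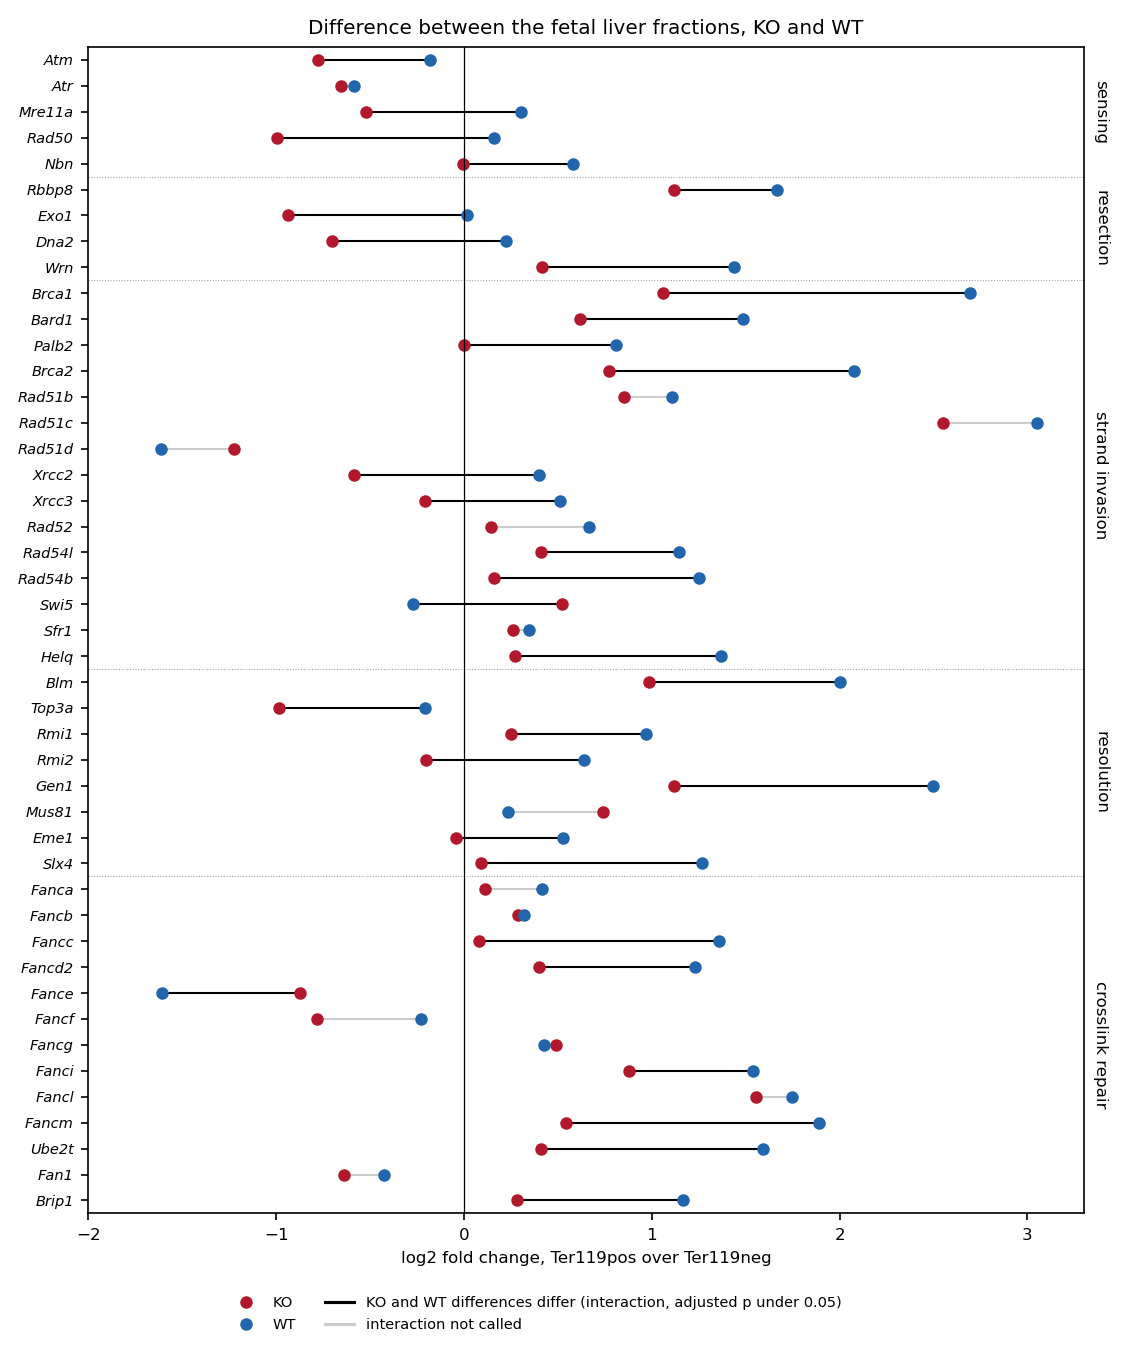
Each row gives the log2 fold change of Ter119pos over Ter119neg in KO (red) and in WT (blue) for 1 gene, joined by a black line where the interaction was called. For most genes the KO point lies left of the WT point, with Swi5 and Fance as the called cases of the reverse.

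Promoters were read because most of the genes fell together in Ter119pos KO cells. RefSeq windows on GRCm38.p6, from 250 bases before to 50 after the annotated start, were at hand for 34 of the 45 genes. Those without an entry were Rad50, Nbn, Rbbp8, Exo1, Wrn, Rad51d, Xrcc2, Rad54b, Top3a, Rmi2 and Fancd2. E2F-type letters (TTTCCCGC, TTTCGCGC, TTTGCCGC or TTTGGCGC, on either strand) were in the first listed window of 4 of the 34 genes (11.8%) and of 2.93% of 16522 protein-coding genes. ETS-type letters (CCGGAAG, on either strand) were in 9 of the 34 (26.5%) and in 12.3% of all. CHR-type letters (TTTGAA, on either strand) were in 5.88% and in 15.6%. A match is a description of the letters, not of binding.
All 3 shares count the first listed window of a gene, and Rmi1 has E2F-type letters (TTTGGCGC) in its second window, which is not counted. The 4 genes counted for E2F-type letters are shown with a match in capitals, 5′ to 3′ along the gene's strand. Rad51c has such letters in both of its windows, and the stretch shown comes from the second, at the start annotated for the gene, not from the first (TTTCGCGC), which was counted.
Brca2: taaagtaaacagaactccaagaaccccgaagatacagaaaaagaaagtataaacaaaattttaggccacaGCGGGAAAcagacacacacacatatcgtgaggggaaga
Bard1: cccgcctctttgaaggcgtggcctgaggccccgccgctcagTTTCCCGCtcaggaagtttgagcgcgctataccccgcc
Rad51c: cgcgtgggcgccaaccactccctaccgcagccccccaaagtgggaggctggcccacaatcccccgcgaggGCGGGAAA
Fancg: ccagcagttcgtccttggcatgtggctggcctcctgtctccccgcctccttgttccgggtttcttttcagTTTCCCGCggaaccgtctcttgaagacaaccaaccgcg
These lie at chr5:150522383-150522490, plus strand, at chr1:71103144-71103222, minus strand, at chr11:87404952-87405029, minus strand, and at chr4:43010316-43010423, minus strand, in the same order. The matches begin 168, 209, 5 and 52 bases before the start. CHR-type letters also occur in the Bard1 stretch, 242 bases before the start and apart from the capitals. In Ter119pos cells the log2 fold changes of these 4 genes were -2.09 ± 0.11, -1.11 ± 0.11, -1.36 ± 0.22 and -0.66 ± 0.18, and all 4 genes fell. Of all 45 genes 80.0% fell there, so a fall does not set these 4 apart.
Palb2 and Helq are shown as genes with ETS-type letters, in capitals, whose start lies close to that of a neighbour on the other strand, at 56 bases from Dctn5 for Palb2 and 29 bases from Mrps18c for Helq.
Palb2: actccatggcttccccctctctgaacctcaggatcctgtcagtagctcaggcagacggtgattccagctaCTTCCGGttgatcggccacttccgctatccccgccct
Helq: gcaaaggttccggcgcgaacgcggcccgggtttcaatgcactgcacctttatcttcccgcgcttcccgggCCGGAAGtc
They lie at chr7:122133034-122133140, minus strand, and at chr5:100798601-100798679, minus strand. The matches begin 124 and 9 bases before the start. Of the 9 genes counted for ETS-type letters, Atm, Atr, Palb2, Helq, Gen1, Eme1 and Brip1 fell in Ter119pos KO cells. Swi5 rose there and Fance was not called.

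Companion genes of the same pathways, 51 of 54 listed, were read in the same fits. In Ter119pos KO cells 30 of the 51 (58.8%) fell and 7 (13.7%) rose, against 29.3% falling and 24.8% rising among all tested genes, with a median of -0.71 against -0.04. In Ter119neg KO cells 11 (21.6%) fell and 2 (3.92%) rose, against 9.55% falling and 9.57% rising among all tested genes, with a median of -0.13 against 0.01. In LK cells edgeR called none, with an unadjusted p under 0.05 for 7 lower and 1 higher in KO. With the letter block 7 (13.7%) fell and 5 (9.80%) rose in LK KO cells, close to the 12.8% falling and 9.9% rising among all tested genes.

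Of 10 companion genes of filament formation and single-strand binding, 4 fell and 3 rose in Ter119pos KO cells, with a median of -0.30. Rad51ap1 (-0.94 ± 0.13), an accessory factor of strand invasion, Rad18 (-0.996 ± 0.13), a ubiquitin ligase, and Rpa1 (-0.73 ± 0.11), which coats single strands, were among those that fell, and Zswim7 was among those that rose (2.55 ± 0.31). In Ter119neg KO cells 1 gene of this list fell, Psmc3ip (-0.51 ± 0.14).

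Of 13 checkpoint genes, 9 fell and 1 rose in Ter119pos KO cells. Clspn, which carries the signal of Atr to Chek1, fell (-2.37 ± 0.11), as did the mediator Mdc1 (-1.92 ± 0.13), the ubiquitin ligase Rnf168 (-1.39 ± 0.12) and Topbp1 (-1.10 ± 0.12). In Ter119neg KO cells 4 of them fell, namely Clspn (-0.68 ± 0.11), Mdc1 (-0.65 ± 0.12), Chek1 (-0.43 ± 0.11) and Rnf168 (-0.39 ± 0.11). Of 5 genes of the BRCA1-A complex, 2 fell and 1 rose in Ter119pos KO cells. Brcc3, its ubiquitin-removing enzyme, fell (-1.02 ± 0.14), as did Uimc1 (-0.58 ± 0.12), and Babam1 rose (1.01 ± 0.11). In Ter119neg cells edgeR called none of the 5, and 0 had an unadjusted p under 0.05.

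Of 13 end-joining genes, which repair breaks without a template, 8 fell and 1 rose in Ter119pos KO cells. Polq (-1.86 ± 0.11), Trp53bp1 (-1.68 ± 0.13), Rif1 (-1.33 ± 0.11) and Prkdc (-1.03 ± 0.10) were among those that fell. In Ter119neg KO cells 4 fell and 1 rose, with Rif1 at -0.41 ± 0.11 and Lig3 at -0.49 ± 0.12. Of 10 measured further crosslink genes, 7 fell and 1 rose in Ter119pos KO cells, with the polymerase Rev3l at -1.69 ± 0.11 and the deubiquitinase Usp1 at -0.89 ± 0.11. In Ter119neg KO cells 2 fell, Ercc1 (-0.66 ± 0.19) and Slx1b (-0.80 ± 0.21), and Rev1 rose (0.84 ± 0.12, edgeR adjusted p = 0.000463).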

How the data were processed

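RNA was isolated with Trizol (fetal liver) or on columns (LK), and a stranded kit for total RNA was used for the libraries, per the labels' protocols. The submitters' processing notes name STAR 2.5.3, RSEM and the genome GRCm38 (mm10). No source used here gives the RSEM version, the annotation release or the strand setting. The authors deposited expected counts per gene, as RSEM estimates them.

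Expected counts were rounded and tested with edgeR 4.0.16 in R 4.3.3 (filterByExpr, TMM normalisation, quasi-likelihood F test), in 1 model for the 6 LK libraries and 1 with group means for the 8 fetal libraries. Adjustment of p-values (Benjamini-Hochberg) ran over all genes tested in a comparison. The SE is the absolute log2 fold change divided by the root of F. CPM are TMM-normalised. The step lists, companion lists and marker lists, and the members themselves, were chosen with earlier results of these data known. Full values were given for up to 12 called members by smallest p (up to 8 between fractions, and the 4 with the smallest p where fewer than 4 were called); up to 4 companions a list were named by smallest p. The counts of companion genes include 1 gene whose own values are not reported here. Gene models and longest transcripts came from GENCODE M21. The length trend was a lowess fit with a span of 0.3, and its removal left part of the trend. Scripts were tested on simulated data.

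Pairing by letter and by mouse was checked by correlating what remains of each library once its group mean is removed. In LK cells r was 0.604, 0.719 and 0.730 for the 3 shared letters, so results with a letter block are given for LK too, although the labels do not say what a letter shares. Fetal letters had r of 0.0047 in Ter119neg and -0.029 in Ter119pos cells. Libraries of the same mouse in both fractions had r of 0.155 in KO mice and -0.068 in WT mouse 4. With 2 libraries a group, the remainders of a group mirror each other. The WT libraries of letter A, from different mice, thus also had r of -0.068, and the WT value cannot show what a shared mouse adds. Alternatives were DESeq2 1.42.0, limma 3.58.1 voom, another normalisation, no count filter, removal of globin and ribosomal RNA genes, removal of the length trend, the blocks, each fetal fraction alone, and leaving out each library.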

Additional observations from a re-analysis of the deposited data

Results flagged for a closer look

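The KO effect differed between the fetal fractions, by the interaction test of edgeR at an adjusted p under 0.05, for 32 of the 45 genes. Values are the log2 KO effect in Ter119pos minus that in Ter119neg cells. Among sensing genes the difference was -0.60 for Atm, -0.82 for Mre11a, -1.16 for Rad50 and -0.58 for Nbn. Among resection genes it was -0.54 for Rbbp8, -0.95 for Exo1, -0.93 for Dna2 and -1.02 for Wrn. Among strand invasion genes it was -1.64 for Brca1, -0.87 for Bard1, -0.81 for Palb2, -1.31 for Brca2, -0.99 for Xrcc2, -0.72 for Xrcc3, -0.74 for Rad54l, -1.09 for Rad54b, 0.79 for Swi5 and -1.10 for Helq. Among resolution genes it was -1.02 for Blm, -0.78 for Top3a, -0.72 for Rmi1, -0.84 for Rmi2, -1.38 for Gen1, -0.57 for Eme1 and -1.17 for Slx4. Among crosslink repair genes it was -1.28 for Fancc, -0.83 for Fancd2, 0.73 for Fance, -0.66 for Fanci, -1.35 for Fancm, -1.18 for Ube2t and -0.88 for Brip1.

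For 2 genes the KO and WT libraries were separated in opposite directions in LK cells and in a fetal fraction. The difference was not tested because LK and fetal libraries were fitted apart. With 2 libraries a fetal group, separation also occurs in genes that were not called. The share of all genes with such opposite separation is not given here. Ube2t was lower in all KO than in all WT libraries of LK cells (-0.49 ± 0.23) and higher in Ter119neg cells (0.14 ± 0.14), and neither change was called. Helq was higher in all KO than in all WT libraries of LK cells (0.26 ± 0.20, not called) and fell in Ter119pos KO cells (-1.06 ± 0.13).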

How the results depend on the processing

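The number of the 45 genes called was within 1.5 times the reported count under most alternatives. Of the recomputed log2 fold changes of genes with full values, 713 stayed on the same side of the threshold. A further 8 passed it only under the alternative, 11 no longer passed it and 0 changed sign. Genes with full values were chosen by smallest p in the reported fit, and the alternatives use the same counts. The tally is therefore not an independent check. In LK cells, 3 genes were lower with DESeq2 and 1 with the transcript length trend removed, against 0 as reported. With the replicate block on the letter, 8 LK genes were lower. Genes higher in Ter119neg KO cells numbered 1 in place of 2 with RLE size factors, without a count filter, with DESeq2 and with globin and ribosomal RNA genes removed. Positive interactions numbered 1 in place of 2 with DESeq2 and with the length trend removed. Without a count filter 7 genes were lower in Ter119pos WT than in Ter119neg WT cells, in place of 3. The cause was not tested. With both LK libraries of letter B or of letter C left out, alternatives chosen after seeing the data, 0 genes were called.

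When 1 library was left out, LK calls stayed at 0 to 0 in each direction. In Ter119neg cells 7 to 10 genes were lower and 0 to 0 higher in KO. In Ter119pos cells 35 to 35 were lower and 2 to 2 higher. Negative interactions numbered 19 to 28 (19 without Ter119neg WT library A) and positive ones 1 to 2 (1 without Ter119pos KO library A). Between fractions, 16 to 19 genes were higher and 9 to 11 lower in KO cells, and 27 to 29 were higher and 3 to 5 lower in WT cells (5 without Ter119pos WT library B). The block on fetal letters, which do not pair the libraries, left the counts within 1.5 times. With the mouse block 20 genes were higher between fractions in KO cells. The WT fraction difference with that block rests on mouse 4 alone, so its WT and interaction counts are not given. Removing globin and ribosomal RNA genes moved the median log2 change of all genes by 0.12 in the interaction and by 0.14 between fractions in KO cells; relative to it the median of the 45 genes was -0.72 in place of -0.73, and 0.35 in place of 0.37. With 2 libraries a fetal group, precision rests on a spread shared by all 4 groups. Rad51c and Rmi2 had the lowest levels per length in some groups, where depth limits precision.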

Other observations

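Of the 45 genes, 13 (28.9%) have an annotated start within 1000 bases of the start of a protein-coding gene that runs the other way, against 10.2% of 12816 protein-coding genes. For 12 of the 13 pairs the neighbour passed the count filter. In Ter119pos KO cells 10 of these 12 members fell, and of their neighbours 6 fell and 1 rose, where 29.3% of all tested genes fell and 24.8% rose. In Ter119neg KO cells 4 of the members and 1 of the neighbours (8.33%) fell, where 9.55% of all tested genes fell, so that the neighbours' share was near that of all genes. Gen1 (-2.12 ± 0.12) and its neighbour Smc6 (-1.53), a gene of a chromosome-holding complex, both fell in Ter119pos KO cells at a distance of 85 bases, as did Brca1 (-1.88 ± 0.11) and Nbr1 (-0.92) at 194 bases and Fancd2 (-1.11 ± 0.10) and Emc3 (-0.66) at 30 bases. Helq fell (-1.06 ± 0.13) while Mrps18c, a gene of the mitochondrial ribosome, rose (1.17) at 29 bases. Palb2 fell (-0.98 ± 0.14) while Dctn5 was not called (0.03), and Rad54l fell (-1.34 ± 0.12) while Pomgnt1 was not called (-0.15). The pairs were looked up after the values of the 45 genes were known and are given as values only.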
